A study of Mus musculus with 6 samples.

Results

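Wide cleavage zones are stretches of the mouse genome over which messenger RNA 3′ ends fall across 60 nt or more on the same strand. Cleavage positions from 6 libraries were pooled, and neighbouring positions on the same strand at most 24 nt apart were joined, which gave 931675 clusters outside the mitochondrial genome. The zones were selected on measured values: a mean level from 10 to 200 reads scaled to the total of a library (CPM) over the 6 libraries, and a width, from the first to the last position, of 60 nt or more. The rule found 1135 zones, or 12.04% of the 9426 clusters in that band of levels. The other 8291 clusters of the band serve as the comparison below. Width and mean level chose the zones, so neither is tested against other clusters. Differences in level between the groups are tested below, and zones that entered only through the libraries of a single group are given there as descriptions. At the width limit, 44 zones measured 60 nt and 45 clusters of the band measured 59 nt. At the limits of level, the zones nearest to them had 10.03 and 199.4 CPM, and the nearest clusters of that width outside had 9.94 and 201.1 CPM.

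The libraries came from V6.5 mouse embryonic stem cells, a line of mixed C57BL/6 and 129 background. They formed 3 groups of 2 biological replicates: cells with no treatment, cells that received an antisense morpholino oligonucleotide (AMO) of scrambled sequence, and cells that received a U1-targeting AMO. The AMO conditions were taken by the submitters from published work, and nothing else is stated to differ between the groups. Genes were not assigned here, so the cell type was not checked against its marker genes, and zones are named by mm9 coordinates.

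Messenger RNA 3′ ends are made by cleavage of the nascent transcript followed by addition of a poly(A) tail. The cleavage and polyadenylation specificity factor recognises a hexamer, in DNA letters most often AATAAA or its close variant ATTAAA, and cleavage takes place a short distance downstream, usually at several neighbouring nucleotides. The U1 small nuclear ribonucleoprotein, which marks 5′ splice sites, also holds back cleavage and polyadenylation inside transcribed regions.

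The depth differed between libraries, and so did the number of positions that they listed. The deposited reads numbered 38569397 and 60473882 in untreated cells, 26846406 and 62257923 under the scrambled AMO, and 15752080 and 57925358 under the U1 AMO, in replicates 1 and 2. Replicate 2 of untreated cells listed the fewest distinct positions, 500472, against 683584 to 1193338 in the other libraries. The zones together held 5.37% to 7.14% of the reads of a library, and a zone had a median of 520 to 2493 reads in a library. Reads were found in every library for 1130 of the 1135 zones. Read names in the files show that both AMO libraries numbered 1 were sequenced in the same run and lane, that both numbered 2 were sequenced in another run, and that each untreated library had its own run. Differences between untreated cells and either AMO therefore cannot be told apart from differences between runs.

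Each deposited position carries a single hexamer and the distance from it, 6 to 40 nt, and 36 kinds of hexamer occur. These hexamers are shown because the listed hexamers are used below to group the positions of a zone. Whether each listed hexamer acts as a signal was not tested. The hexamers that led the zones most often were:
the canonical signal: AATAAA
the most common variant: ATTAAA
the next in number: TATAAA
and the fourth: AGTAAA
Positions that share the same hexamer at the same genome place are called a hexamer site here, and a site is called used where it held at least 5% of a zone's reads as a mean of the 6 library shares. The site with the most reads carried AATAAA in 662 zones (58.3%), ATTAAA in 220 (19.4%), TATAAA in 55 and AGTAAA in 54. In the other clusters of the band AATAAA led more often, in 68.4%, ATTAAA led in 17.3%, and kinds other than these led in 14.3% against 22.3% of the zones. The median distance from the hexamer of the leading site to the strongest position of that site was alike, 22 nt in the zones and 21 nt in the other clusters. The listing hides some hexamers. Among 3520 changes of hexamer between neighbouring positions while the earlier hexamer was still within 40 nt, AATAAA never gave way to another kind and another kind gave way to AATAAA 1706 times, so a second hexamer within reach of a position that lists AATAAA is not seen.

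Most zones were far narrower in their reads than in their outer limits. The median zone was 75 nt wide (range 60 to 224 nt) and held 39 positions, against 28 nt and 20 positions in the other clusters. The middle 90% of its reads, taken as the mean of library shares, spanned a median of 16 nt, against 8 nt in the other clusters. This span was at most 15 nt in 544 zones (47.9%) and at least 60 nt in 131 zones (11.5%). A median of 94.9% of the reads of a zone lay within 12 nt of its strongest position, against 99.9% in the other clusters. The tails held few reads: of 45178 positions in the zones, 15.97% had a single read in all 6 libraries together, and 26.2% held 1% or more of their zone's reads. The zone reached further upstream of the strongest position than downstream, with medians of 44 nt and 29 nt, while its reads lay more often downstream (median 30.7%) than upstream (median 20.6%). In the other clusters the reach was a median of 11 nt upstream and 14 nt downstream. Their reads also lay more often downstream (median 27.6%) than upstream (median 16.9%). Width and span are plotted together.

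**Figure D1:**
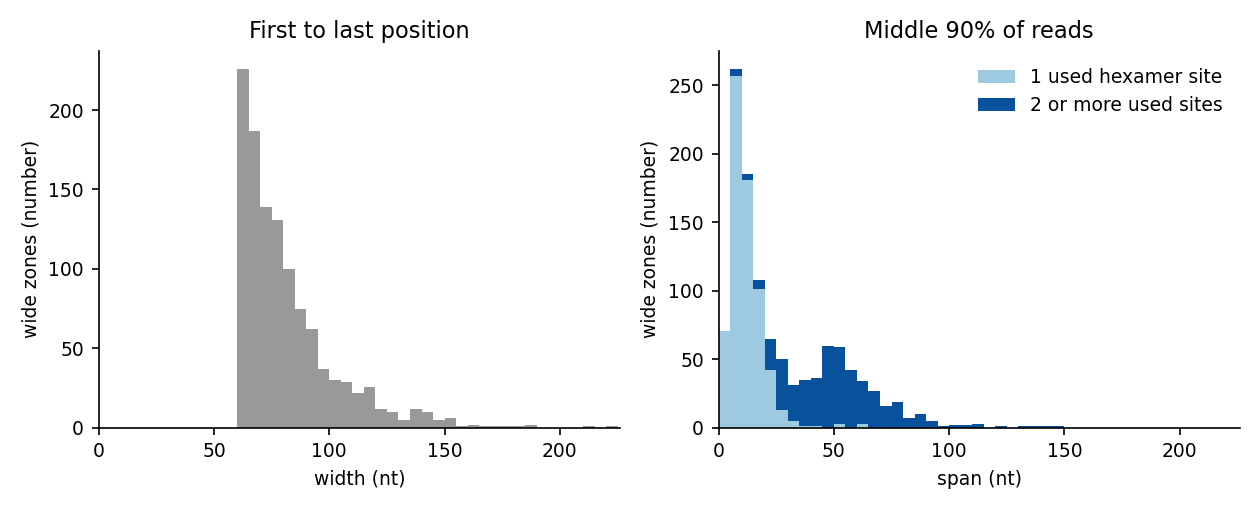
Number of wide zones by width from the first to the last position (left, nt) and by span of the middle 90% of reads (right, nt), in 5-nt bins, with zones split on the right by the number of used hexamer sites. The left panel starts at the limit of 60 nt that chose the zones; on the right most zones with 1 used site have short spans (median 10 nt), and zones with 2 or more used sites extend further (median 49 nt).

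The zones differed in the number of their used sites. A single used site was found in 678 zones (59.7%), and 457 zones (40.3%) had 2 or more: 380 had 2, 63 had 3, 13 had 4 and 1 had 5. Among the other clusters of the band 442 (5.33%) had 2 or more. Zones with 1 used site were compact, with a median span of 10 nt for the middle 90% of reads and 98.3% of reads within 12 nt of the strongest position. Zones with 2 or more had a median span of 49 nt and 79.4% of reads in that window. AATAAA led in 65.5% of zones with 1 used site and in 47.7% of those with more. Both width and the count of used sites were read from the same positions, so this relation is a description.

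The widest zones show both forms. The zone at chr5:86538216-86538395 on the minus strand was 180 nt wide, yet 99.5% of its reads belonged to a single AATAAA site and the middle 90% of them spanned 9 nt. A zone of 185 nt at chr1:172072020-172072204 on the minus strand had 96.5% of its reads on an AATAAA site and a span of 8 nt. At chr13:41108211-41108420 on the plus strand, 210 nt wide, an AGTAAA site held 92.6% within a span of 15 nt. By contrast, the widest zone of all, chr3:146169223-146169446 on the minus strand at 224 nt, split its reads between a TATAAA site (51.5%) and an AATAAA site 64 nt downstream (45.8%). The zone at chr1:137198179-137198364 on the minus strand, 186 nt wide, had an AATAAA site with 63.4%, a GATAAA site 44 nt downstream with 16.7% and an AAATAA site a further 18 nt on with 15.6%.

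The 5 zones with the highest levels were mostly of the compact form. Their mean levels reached 199.4 CPM. AATAAA sites held 99.4% of reads at chr11:4969675-4969740 (minus strand), 99.5% at chr9:51896779-51896849 (plus strand) and 95.7% at chr9:75314165-75314310 (plus strand). The highest of all, chr12:81268525-81268588 on the minus strand, carried 2 ATTAAA sites 51 nt apart, with 7.7% of reads on the upstream and 92.3% on the downstream site. The zone at chr5:30976744-30976829 on the plus strand joined an AAGAAA site (20.5%) and an AATAAA site 12 nt downstream (79.2%).

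The used hexamers listed in a zone usually lay well apart. In the 380 zones with exactly 2 used sites the hexamers were a median of 41 nt apart (quartiles 30 and 49 nt, range 1 to 100 nt), and in 256 (67.4%) they were 30 to 60 nt apart. In 7 of these pairs the hexamers overlapped. In the other clusters with 2 used sites the median spacing was 17 nt. Pairs 15 to 20 nt apart made up 43 of the zones, and 31 had pairs over 60 nt apart. A zone must reach 60 nt, so pairs that lie close together could enter only with wide tails. The listing also hides another kind at positions where AATAAA is within 40 nt, so some close pairs are not seen. Its part in the spacing was not tested.

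By the listed hexamers, neither the upstream nor the downstream site dominated by its place. In the 3520 changes of hexamer described above the new hexamer never lay upstream of the earlier one, and AATAAA gave way to a nearer AATAAA 374 times. Reads within reach of both hexamers can thus be listed on the downstream site, and the part of this in the split was not tested. The most upstream used site held the most reads in 216 of the 457 zones (47.3%), and the most downstream in 212. Among the zones with 2 used sites, the upstream site held at most 20% of reads in 109, at least 80% in 121 and between these in 150. Near-even use, 40% to 60% on the upstream site, was found in 43. The median share of the most upstream site was 42.6% and 40.9% in untreated cells, 40.9% and 41.8% under the scrambled AMO and 42.5% and 44.4% under the U1 AMO. Both U1 AMO libraries were above both scrambled AMO libraries, and untreated cells overlapped with each AMO group.

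Pairs of unlike hexamers leaned to AATAAA. Where both were AATAAA, in 82 zones, the upstream site was the stronger in 40. AATAAA upstream of any other kind was the stronger in 62 of 77 zones, and any other kind upstream of AATAAA left AATAAA the stronger in 41 of 55. These 77 and 55 zones include the pairs with ATTAAA as the other kind. In those pairs the stronger was AATAAA in 17 of 28 zones where it lay upstream and in 22 of 29 where it lay downstream. In 25 zones both were ATTAAA, with the upstream site stronger in 11. AATAAA was at a used site in 258 of the 457 zones, and neither AATAAA nor ATTAAA was used in 112. Since the listing favours AATAAA over other kinds where both are in reach, the listing moves with these counts, and its part in them was not tested. The same holds for pairs of AATAAA, where the listing can pass to the nearer hexamer.

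**Figure D2:**
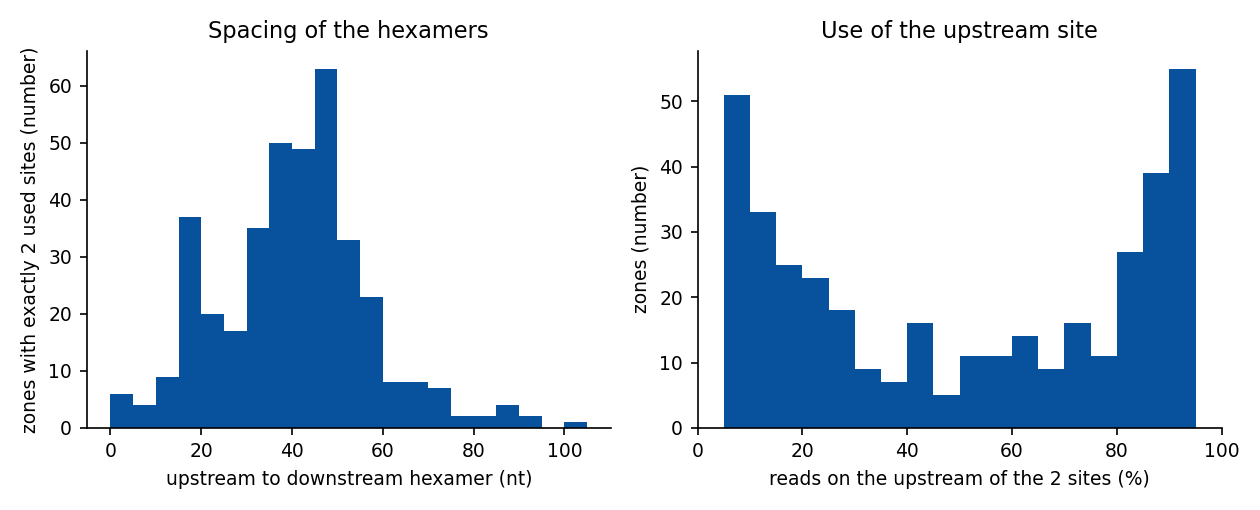
Zones with exactly 2 used hexamer sites (380), by the distance from the upstream to the downstream hexamer (left, nt, 5-nt bins) and by the share of reads on the upstream site (right, %, mean of the 6 library shares). Most pairs lie 30 to 60 nt apart, and the shares on the right pile up towards both ends, with 43 zones between 40% and 60%.

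A second peak of substance was uncommon. The strongest position 24 nt or more away from the main one held at least 5% of reads in 250 zones (22.03%), against 1.01% of the other clusters, at least 10% in 138 and at least 20% in 20. The highest such share, 37.7%, was at chr6:30432321-30432428 on the minus strand. Its reads lay on an ATTAAA site and on a second ATTAAA site 48 nt downstream. The upstream site held 45.8% and 47.7% in untreated cells, 42.8% and 55.0% under the scrambled AMO and 55.4% and 52.3% under the U1 AMO. The scrambled AMO libraries overlapped with both other groups, and both U1 AMO libraries were above both untreated libraries. At chr8:81029032-81029167 on the minus strand an AGTAAA site held 80.1% and 66.7% in untreated cells, 57.8% and 48.8% under the scrambled AMO and 57.1% and 52.2% under the U1 AMO, and the AATAAA site 54 nt downstream held most of the rest. Both untreated libraries were above all 4 AMO libraries there, and the test of site use described below did not call it (diffSpliceDGE of edgeR, adjusted p = 0.597 for U1 AMO against untreated). A single library can stand apart: at chr13:96120610-96120680 on the minus strand, with 2 AATAAA sites 36 nt apart, the upstream site held 95.7% in replicate 1 of untreated cells, 34.0% in replicate 2 and 42.5% to 48.4% in the AMO libraries.

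The zones with the most used sites had reads on each of them in every library. The only zone with 5 used sites, chr16:11218366-11218474 on the minus strand, carried TATAAA with 14.5% of reads, ATTAAA 8 nt on with 48.5%, a second ATTAAA 38 nt after the first hexamer with 17.0%, AAGAAA at 72 nt with 9.0% and a second TATAAA at 79 nt with 10.97%. The strongest positions of the first TATAAA and ATTAAA sites lay at 4 and 10 nt from the 5′ end of the zone. A hexamer is listed only from 6 nt on, so their split goes with the listing. Its leading ATTAAA site held 55.5% and 35.0% in untreated cells, 53.9% and 48.5% under the scrambled AMO and 48.7% and 49.4% under the U1 AMO, so replicate 2 of untreated cells was the lowest and the groups overlapped. At chr12:8759284-8759391 on the plus strand, 4 sites followed each other within 68 nt: TATAAA (19.8%), AATGAA (33.0%), AATAAA (36.9%) and GATAAA (10.3%). The strongest positions of the TATAAA and AATGAA sites lay at 47 and 51 nt from the 5′ end of the zone. They were 39 and 31 nt from their hexamers, and a hexamer is listed only up to 40 nt. The split of reads between these sites thus goes with the listing, whose part was not tested. The AATAAA site there held 38.6% and 24.9% in untreated cells, 40.3% and 36.4% under the scrambled AMO and 41.3% and 40.1% under the U1 AMO. At chr13:101436266-101436397 on the plus strand an AATAAA site held 58.0% to 64.4% in the 6 libraries, between an ATTAAA site 29 nt upstream and GATAAA and ATTAAA sites downstream. No AATAAA or ATTAAA was used at chr16:44161213-44161387 on the plus strand, where AAGAAA held 5.5% of reads, AATACA 33.9%, a GATAAA site 26.8% and a second GATAAA site 31.6%.

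**Figure D3:**
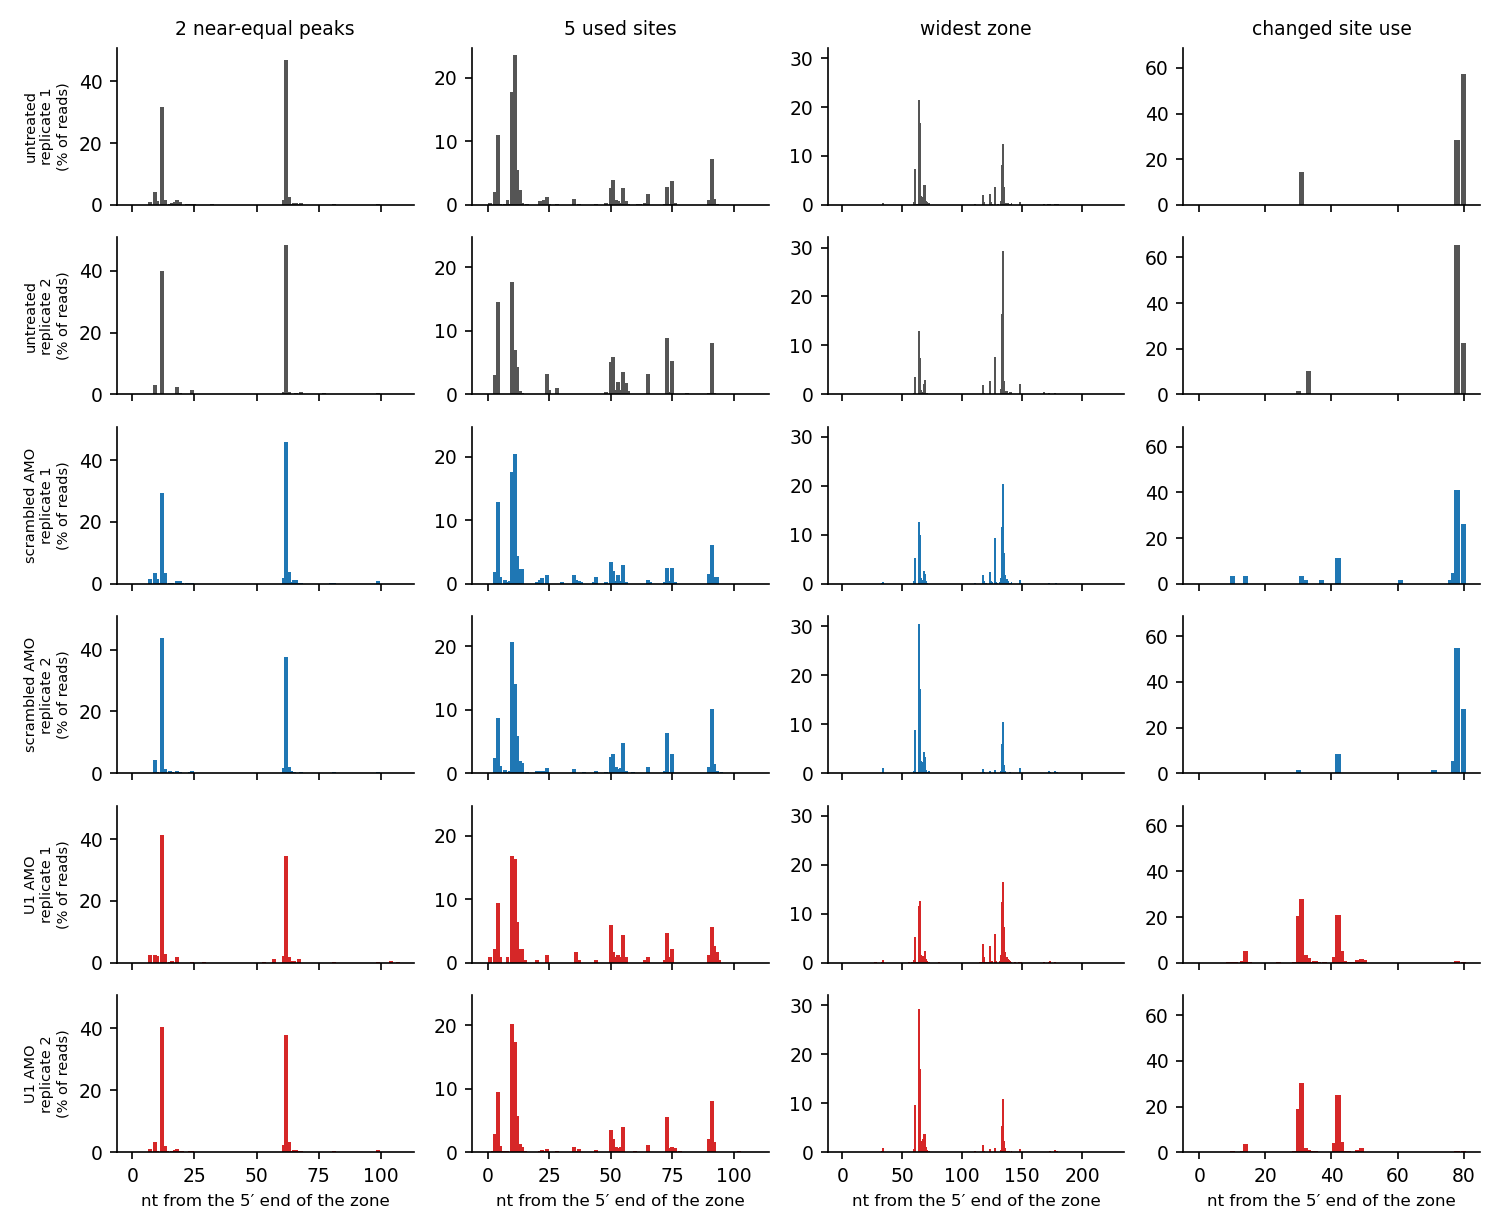
Share of a zone's reads (%) at each position, by distance from the 5′ end of the zone (nt), in the 6 libraries (rows; untreated grey, scrambled AMO blue, U1 AMO red) for 4 zones (columns): chr6:30432321-30432428, chr16:11218366-11218474, chr3:146169223-146169446 and chr1:88252633-88252713. The first has peaks at 12 and 62 nt in all libraries. The peak at 62 nt leads in untreated cells and in replicate 1 of the scrambled AMO, and that at 12 nt in the rest. In the second the strongest position is at 10 or 11 nt. The third changes with the replicate number in both AMO groups, and in the fourth the main peak differs between the U1 AMO libraries and the other 4.

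The zones lay nearer to other cleavage clusters than the rest of the band did. The nearest cluster of at least 10 CPM on the same strand was a median of 8009 nt away, against 27402 nt for the other clusters, and 33.7% of zones had such a neighbour within 1000 nt, against 21.8%. An opposite-strand cluster of that level overlapped 14 zones (1.23%) and 47 of the other clusters (0.567%). The zones are wider by the rule that chose them, and the part of width in these shares was not tested.

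Peak use was described next, as the share of a zone's reads at its strongest position in each library. The median share was 39.6% and 46.8% in untreated cells, 37.5% and 41.5% under the scrambled AMO and 37.0% and 39.5% under the U1 AMO. The group means were 43.2% ± 5.11, 39.5% ± 2.83 and 38.2% ± 1.81 (SD, n = 2 each). Replicate 2 of untreated cells, which listed the fewest positions, had the most concentrated reads. The scrambled AMO libraries overlapped with both other groups, and replicate 1 of untreated cells was close to replicate 2 of the U1 AMO. Thinning all libraries to the reads of the shallowest left 46.9% in that library and 37.0% to 41.2% in the others. The effective number of positions, the inverse of the sum of squared shares, had medians of 4.23 and 3.31, 4.53 and 3.94, and 4.62 and 4.27 in the same order of libraries. The leading hexamer site held a median of 96.6% to 97.2% of reads in the 6 libraries. Within the AMO groups the values went with the run: 37.5% and 37.0% in the run of replicate 1, and 41.5% and 39.5% in that of replicate 2.

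The strongest position itself was mostly fixed. It was the same nucleotide in all 6 libraries in 858 of the 1130 zones with reads in each (75.9%), and it moved by 24 nt or more in 64 (5.66%). It differed between the replicates of a group in 159 zones in untreated cells, in 119 under the scrambled AMO and in 129 under the U1 AMO. A strongest position that was the same in both replicates and different between the groups was seen in 7 zones for U1 AMO and scrambled AMO, 2 of them 24 nt or more apart. The counts were 24 and 5 for U1 AMO and untreated, and 21 and 3 for scrambled AMO and untreated.

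The first comparison asked how the zones changed when U1 was targeted, under the scrambled AMO as control. In the level of whole zones, 10 zones rose under the U1 AMO and none fell (edgeR quasi-likelihood test, Benjamini-Hochberg adjusted p under 0.05 over 80119 clusters, all 6 libraries in the fit). The background was 0.565% of all clusters tested and 0.615% of the clusters at 10 to 200 CPM called higher, and 0% of either called lower. The 10 zones are 0.881% of the 1135. In RNA from bulk cultures, fewer cells of a type and less RNA per cell cannot be told apart. At an unadjusted p under 0.05, 17 zones (1.5%) were higher and 1 was lower, against 8.99% and 0.0974% of all clusters tested. The rule that chose the zones counted the U1 AMO libraries in the mean level, and 9 of the 10 would not have reached 10 CPM on the other 4 libraries, so no weight is placed on their count or their tests, and their levels are given as descriptions. Of all 1135 zones, 24 are of that kind.

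The exception was well above that limit in every library. The zone at chr15:102305183-102305252 on the plus strand, with 99.6% of its reads on an AATAAA site, had 20.4 and 20.3 CPM in untreated cells, 21.6 and 27.2 CPM under the scrambled AMO and 135 and 126 CPM under the U1 AMO. Both U1 AMO libraries were above all others, which lay close together. Its log2 fold change over the scrambled AMO was 2.39 (SE 0.31, edgeR adjusted p = 0.0382). The mean position of its reads, counted from the 5′ end of the zone, was 11.99 and 12.3 nt under the scrambled AMO and 11.8 and 12.1 nt under the U1 AMO.

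The other 9 had under 7 CPM in each library without the U1 AMO. At chr11:51417904-51418004 on the minus strand the level was 0.441 and 0.215 CPM in untreated cells, 0.633 and 0.498 CPM under the scrambled AMO and 92.3 and 90.6 CPM under the U1 AMO. The zone at chr1:88252633-88252713 on the minus strand had 0.363 and 0.959, 2.27 and 1.14, and 105.95 and 123 CPM in the same order. At chr7:97125102-97125174 on the minus strand, an AATAAA zone, the values were 0.0778 and 0, 0.335 and 0.177, and 83.4 and 64.5 CPM. Both U1 AMO libraries were above the other 4 libraries in all 3.

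The remaining 6 had the same order of groups. At chr14:103375788-103375855 on the minus strand, where an ATTAAA site and an AATAAA site lie 14 nt apart, the level was 1.89 and 2.17, 6.78 and 3.98, and 70.5 and 48.7 CPM. The AATAAA site held 75.3% and 77.9% of reads in untreated cells, 80.8% and 82.7% under the scrambled AMO and 81.5% and 78.5% under the U1 AMO, so the AMO groups overlapped and both untreated libraries were below them. An ATTAAA zone at chr11:86333130-86333199 on the minus strand had 1.56 and 2.60, 5.14 and 3.95, and 58.1 and 38.5 CPM. AATAAA led in the last 4, at chr10:85419669-85419731 and chr8:59963967-59964043 on the minus strand and at chr6:67217978-67218050 and chr4:55364075-55364149 on the plus strand. These had from 0 to 0.353 CPM in the libraries without the U1 AMO and from 27.3 to 44.1 CPM with it. The zone on chromosome 8 had no read in untreated cells, and its level under the U1 AMO was at least 943-fold higher than the floor of 3 counts over that group. Of the 10 zones, 6 had 1 used site. All 10 were also called against untreated cells. No zone was called without replicate 2 of the U1 AMO, nor without either replicate of the scrambled AMO.

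**Figure D4:**
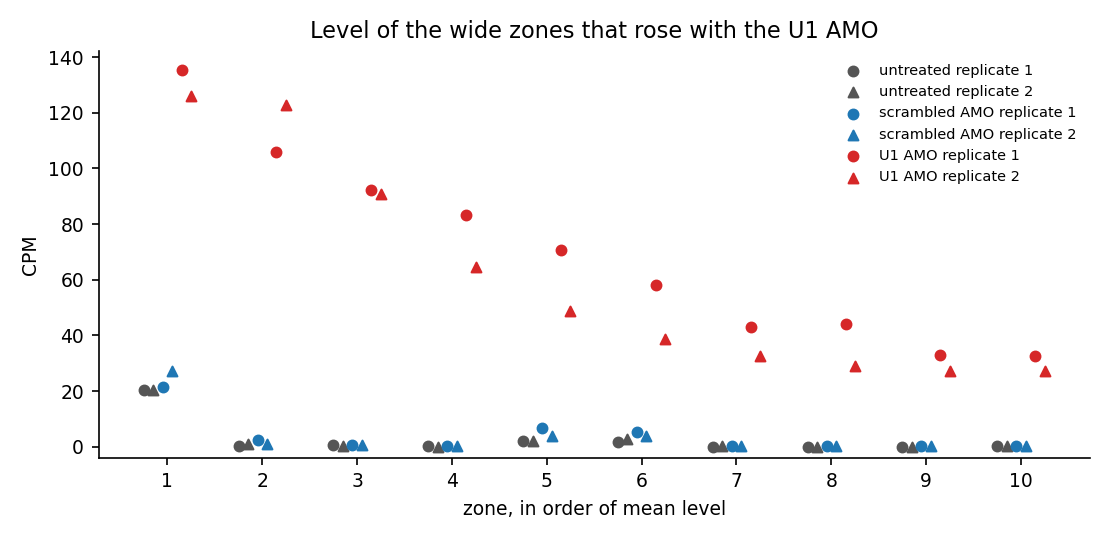
Level (CPM, linear axis) of the 10 wide zones that rose under the U1 AMO over the scrambled AMO, in order of mean level, with 1 point for each library (circles replicate 1, triangles replicate 2). The U1 AMO libraries lie between 27.3 and 135 CPM, and the other 4 libraries lie under 7 CPM in all zones but the first, where they lie between 20.3 and 27.2 CPM.

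When the 4 AMO libraries were fitted with the run as a term, which pairs the libraries sequenced together, 33 zones were called higher under the U1 AMO and 118 lower (edgeR quasi-likelihood test, adjusted p under 0.05 over 80111 clusters). In that fit 11.6% of all clusters and 4.7% of those at 10 to 200 CPM were called higher, and 1.91% and 9.78% lower. The shares of the zones were 2.91% and 10.4%. This fit has 1 residual degree of freedom, and its common dispersion was 0.0221 against 0.329 in the fit of all 6 libraries, so its calls lean on the spread shared across clusters. The falls were small. Among zones whose AMO libraries did not overlap, the largest fall was at chrX:130610389-130610453 on the plus strand, an AATAAA zone with 15.4 and 14.9 CPM under the scrambled AMO and 8.25 and 7.80 CPM under the U1 AMO. Its log2 fold change was -0.94 (SE 0.40, edgeR adjusted p = 0.554 with all libraries and 0.000475 with the run term). Untreated cells had 9.07 and 19.6 CPM there, below and above the scrambled AMO libraries and above both U1 AMO libraries. At chr15:54907597-54907672 on the minus strand, also an AATAAA zone, the scrambled AMO gave 20.8 and 18.9 CPM and the U1 AMO 11.2 and 10.8 CPM (-0.87, SE 0.46, edgeR adjusted p = 0.867, and 0.000579 with the run term). The median log2 fold change of all zones was -0.21, against -0.18 in the band and -0.02 over all clusters tested.

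Reads moved little along the zones when U1 was targeted. The mean position of the reads, in nt from the 5′ end of the zone, was compared in the 1125 zones with at least 20 reads in every library. None was called (limma, adjusted p under 0.05 over 10186 clusters), and 0% of all clusters were called in either direction. This fit has no run term, so differences between the runs that the AMO groups share count as spread. Its lack of calls therefore cannot show that reads stayed in place. At an unadjusted p under 0.05 (limma), 20 of all clusters passed in this fit and 720 in the 4 AMO libraries with the run term. Without the run term 2 zones (0.178%) passed, both upstream, against 0.177% of all clusters upstream and 0.0196% downstream. The median absolute difference between the group means was 0.252 nt. Between the U1 AMO and the scrambled AMO library of the same run it was 0.376 nt (replicate 1) and 0.253 nt (replicate 2). Between the replicates of a group it was 0.683 nt in untreated cells, 0.486 nt under the scrambled AMO and 0.505 nt under the U1 AMO. Replicates come from different runs, so their differences also hold those between runs and are not a like measure. A difference of 5 nt or more was found in 3 zones between the means of the AMO groups. Between their libraries of the same run it was found in 21 zones (replicate 1) and 5 zones (replicate 2). Between replicates it was found in 108 zones in untreated cells, 44 under the scrambled AMO and 53 under the U1 AMO. Zones with 2 or more used sites differed more than those with 1, with median absolute differences between the AMO group means of 0.697 and 0.143 nt. The same order was seen between the replicates of a group. There the medians were 1.82 and 0.388 nt in untreated cells, 1.35 and 0.272 nt under the scrambled AMO and 1.46 and 0.286 nt under the U1 AMO.

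Within runs, 287 zones were downstream under the U1 AMO in both and 328 upstream in both. In 19 zones the difference was 2 nt or more in the same direction in both runs, and each of these had 2 or more used sites. The 2 libraries of a group were on the same side of both libraries of the other in 113 zones downstream and 141 upstream, or 10.04% and 12.5% of the zones, against 12.5% and 9.54% of all clusters tested. With the run term 2 zones were called upstream and none downstream, against 0.108% and 0.0491% of all clusters. At chr10:12898395-12898458 on the minus strand the mean position was 29.8 and 36.5 nt in untreated cells, 32.1 and 34.5 nt under the scrambled AMO and 28.0 and 31.5 nt under the U1 AMO. The U1 AMO libraries differed from the scrambled AMO library of the same run by -4.06 and -2.999 nt, the minus sign marking upstream, while untreated cells overlapped with both groups (limma adjusted p = 0.00878 with the run term, and 1 without it). Its AATAAA site held 46.0% and 39.7% under the scrambled AMO and 56.4% and 46.8% under the U1 AMO, and the GATAAA site 31 nt downstream held the rest. At chr5:30976744-30976829 on the plus strand the mean position was 27.8 and 30.5 nt under the scrambled AMO and 26.0 and 29.3 nt under the U1 AMO, with 29.0 and 26.8 nt in untreated cells (limma adjusted p = 0.00878 with the run term, and 1 without it). The AAGAAA site there held 23.2% and 30.2% of reads in the first run and 12.1% and 16.3% in the second, the U1 AMO library being the higher in both.

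**Figure D5:**
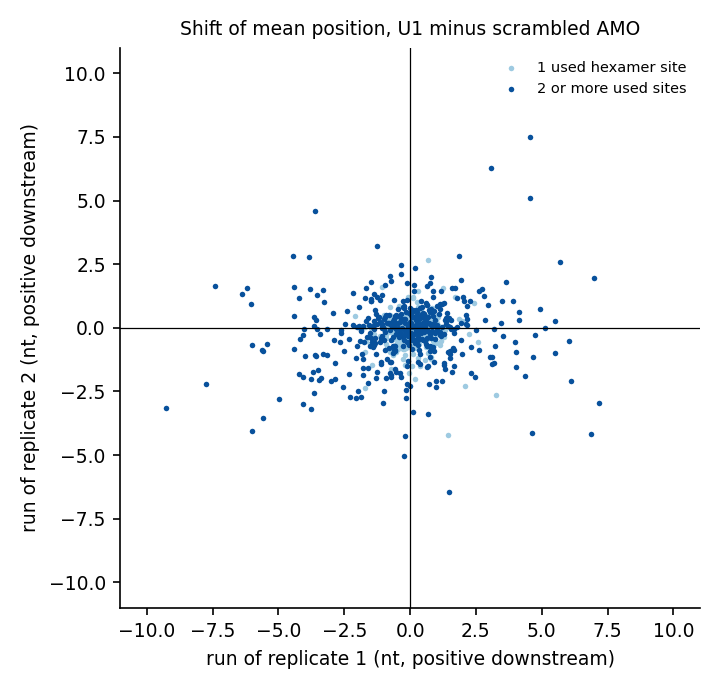
Difference of mean position between the U1 AMO and the scrambled AMO library of the same run (nt, positive downstream), for the run of replicate 1 (x axis) and of replicate 2 (y axis), 1 point for each of 1125 zones. Zones with 1 used site crowd around 0, and the points away from 0 in both directions are zones with 2 or more used sites.

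The largest uncalled differences in both runs lay in zones with several used sites. At chr2:84527881-84527947 on the plus strand the mean position was 47.2 and 45.7 nt under the scrambled AMO and 37.9 and 42.5 nt under the U1 AMO, a difference of -6.20 nt (SE 3.20, limma adjusted p = 1). An AATGAA site held 18.7% and 22.7% of its reads under the scrambled AMO and 38.6% and 28.8% under the U1 AMO, against 24.4% and 12.4% in untreated cells. In the opposite direction, the reads of chr3:115731787-115731940 on the plus strand lay at 102.7 and 100.5 nt under the scrambled AMO and at 107.3 and 108.0 nt under the U1 AMO (6.02 nt, SE 10.9, limma adjusted p = 1). Untreated cells had 96.2 and 74.3 nt, a wider gap than that between the AMO groups. At chr4:129165678-129165746 on the plus strand the shift was 4.81 nt downstream (SE 3.55, limma adjusted p = 1), between an AATAAA site with at most 68.7% of reads in a library and an ATTAAA site 45 nt further on.

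The use of hexamer sites was tested in the 457 zones with 2 or more of them, and 2 zones were called for the U1 AMO against the scrambled AMO (diffSpliceDGE of edgeR, adjusted p under 0.05 over 951 clusters). Over all clusters tested 0.21% were called, and the called clusters were these 2. Both are among the zones that reached 10 CPM only through the U1 AMO libraries, and reads in the control libraries were few, so no weight is placed on these calls and the site shares are given as descriptions. At chr1:88252633-88252713 an ATTAAA site and a TAAAAA site lie 30 nt apart. The upstream ATTAAA site held 14.3% and 12.1% of reads in untreated cells, 18.0% and 9.9% under the scrambled AMO and 91.1% and 93.3% under the U1 AMO. TAAAAA held 85.7% and 87.9%, 75.4% and 90.1%, and 1.3% and 1.2%. The zone had 14 and 58, 61 and 71, and 1669 and 7119 reads in the same order, so the control shares rest on few reads. In levels, the ATTAAA site had 0.0519 and 0.116, 0.410 and 0.112, and 96.6 and 115 CPM, and the TAAAAA site 0.311 and 0.843, 1.71 and 1.03, and 1.40 and 1.48 CPM. The ATTAAA site was thus higher in both U1 AMO libraries than in the other 4, while the TAAAAA site overlapped between the AMO groups and was lower in both untreated libraries than in the AMO libraries.

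In the second zone, chr11:51417904-51418004, an AATAGA site held 64.7% and 61.5% of reads in untreated cells, 64.7% and 51.6% under the scrambled AMO and 99.7% and 99.7% under the U1 AMO. The AAAAGA site 19 nt downstream held 35.3% and 38.5%, 23.5% and 35.5%, and 0% and 0.2%. Reads of the zone numbered 17 and 13, 17 and 31, and 1454 and 5250. The AAAAGA site stayed at 0 to 0.19 CPM in all libraries, while AATAGA went from 0.132 to 0.41 CPM without the U1 AMO to 92.1 and 90.4 CPM with it. Without replicate 2 of the scrambled AMO, 1 of these zones was called. Among all 457 zones, the share of the most upstream site was higher in both U1 AMO libraries than in both scrambled AMO libraries in 48 and lower in 47, or 10.5% and 10.3%, against 10.8% and 9.25% of the 951 clusters.

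Site use went with the run in some zones of both AMO groups. Across the 1125 zones, the deviations of mean position from the group mean correlated at r = 0.72 between AMO libraries with the same number, a description across zones of the same libraries. In the widest zone, chr3:146169223-146169446, TATAAA held 36.5% and 38.7% in the AMO libraries of replicate 1 and 71.5% and 71.1% in those of replicate 2, and 60.01% and 31.2% in untreated cells. The same was seen at chr19:29092005-29092078 on the plus strand, where the upstream of its 2 AATAAA sites held 27.3% and 26.7% in the AMO libraries of replicate 1 and 60.8% and 57.7% in those of replicate 2. At chr9:59163900-59164017 on the plus strand, with 2 ATTAAA sites 100 nt apart, the upstream site held 20.9% and 23.9%, and 38.5% and 37.2%. In these 3 zones the AMO libraries of the same run differed by less than 5 percentage points, and the runs by more than 13.

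Next, untreated cells served as the control for the U1 AMO; this comparison shares the U1 AMO libraries with the first. In level, 19 zones were higher and 30 lower under the U1 AMO (edgeR quasi-likelihood test, adjusted p under 0.05), against 4.29% of all clusters and 1.94% of the band called higher and 0.515% and 2.5% called lower. The zones were called higher in 1.67% and lower in 2.64%. Of the 19, 7 reached 10 CPM on the mean of the 4 libraries without the U1 AMO, and 12 owe their place among the zones to the U1 AMO libraries. The zone at chr8:72565398-72565465 on the minus strand, with an AATAAA site and an AGTAAA site 45 nt downstream, was one of them. It had 0.156 and 0 CPM in untreated cells, 0.931 and 0.562 CPM under the scrambled AMO and 40.6 and 32.0 CPM under the U1 AMO. Its AGTAAA site held 76.0% and 65.7% under the scrambled AMO and 72.3% and 71.6% under the U1 AMO. Without replicate 1 of untreated cells 115 zones were called, and without any other single library 10 to 13.

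Of the 30 zones that were lower than in untreated cells, 25 reached 10 CPM on the mean of the 4 AMO libraries, and 5 owe their place among the zones to the untreated libraries. At chr2:32988926-32988986 on the minus strand, with 2 ATTAAA sites 41 nt apart, the level was 20.6 and 26.3 CPM in untreated cells, 4.17 and 4.05 CPM under the scrambled AMO and 2.54 and 3.45 CPM under the U1 AMO. It is one of these 5, so its levels are a description. An AATAAA zone at chr4:101139594-101139655 on the plus strand had 264 and 326 CPM, 68.5 and 77.4 CPM, and 40.9 and 64.5 CPM (log2 fold change of the U1 AMO over untreated cells -2.52, SE 0.38, edgeR adjusted p = 0.0248). At chr1:71074038-71074131 on the minus strand, where an ATTAAA site held 89.8% to 97.0% of reads, the level was 58.4 and 102 CPM, 20.7 and 18.2 CPM, and 17.3 and 15.6 CPM (U1 AMO -2.33, SE 0.34, edgeR adjusted p = 0.0231). The untreated libraries were above all 4 AMO libraries in these 3 zones. None of the 30 was called between the AMO groups. A single used site was found in 18 of the 30.

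The position of reads within zones differed more from untreated cells than between the AMO groups, without a call. No zone passed the test for the U1 AMO against untreated cells (limma, adjusted p under 0.05), with 0% of all clusters called in either direction. At an unadjusted p under 0.05, 41 zones (3.64%) were further downstream and 90 (8.0%) further upstream, against 3.31% and 6.98% of all clusters tested. The libraries did not overlap in 186 zones downstream and 260 upstream, or 16.5% and 23.1%, against 17.3% and 22.7% of all clusters tested. Differences of 5 nt or more were found in 60 zones, all with 2 or more used sites. Of the 108 zones that differed by as much between the untreated replicates, 106 had 2 or more used sites. At chr2:118931128-118931255 on the plus strand the mean position was 60.5 and 57.8 nt in untreated cells, 71.4 and 76.8 nt under the scrambled AMO and 75.5 and 75.8 nt under the U1 AMO, a difference of 16.5 nt for the U1 AMO (SE 3.29, limma adjusted p = 0.282). A TATAAA site downstream of 2 AATATA sites held 14.8% and 12.5% of its reads in untreated cells, 35.9% and 41.3% under the scrambled AMO and 38.6% and 39.6% under the U1 AMO.

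Shifts upstream had the same form. At chr1:145454564-145454649 on the minus strand the mean position was 36.4 and 44.97 nt in untreated cells, 31.2 and 27.7 nt under the scrambled AMO and 27.7 and 25.6 nt under the U1 AMO (-14.0 nt, SE 3.45, limma adjusted p = 0.364). GATAAA, the upstream of its hexamers, held 53.2% and 40.9%, 64.6% and 66.6%, and 68.4% and 70.0%, and TATAAA 49 nt on held most of the rest. At chr11:97484107-97484221 on the plus strand the mean position was 86.3 and 85.9 nt in untreated cells, 75.3 and 77.8 nt under the scrambled AMO and 71.5 and 75.8 nt under the U1 AMO (-12.4 nt, SE 2.52, limma adjusted p = 0.2997). Its AATAAA site held 11.7% and 13.0%, 24.4% and 20.5%, and 29.4% and 21.6%, and its AATATA site 88 nt downstream 79.3% and 79.9%, 67.0% and 69.0%, and 63.1% and 66.2%. At chr11:100953446-100953526 on the minus strand an AACAAT site held 28.6% and 9.5% in untreated cells, 34.5% and 45.5% under the scrambled AMO and 48.9% and 47.2% under the U1 AMO, and a TATAAA site 49 nt downstream 60.4% and 79.5%, 49.9% and 42.0%, and 36.5% and 37.7%. The mean position there was 15.6 nt further upstream under the U1 AMO than in untreated cells (limma adjusted p = 0.3325). The untreated replicates lay at 42.7 and 52.5 nt in that zone.

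Site use against untreated cells was called in the same 2 zones, chr1:88252633-88252713 and chr11:51417904-51418004 (diffSpliceDGE of edgeR, adjusted p under 0.05), which are the 0.21% of clusters called, and again no weight is placed on them. Of the 457 zones, 113 had a higher and 66 a lower share of the most upstream site in both U1 AMO libraries than in both untreated libraries, or 24.7% and 14.4%, against 26.2% and 13.9% of the 951 clusters. Without replicate 1 of untreated cells 15 zones were called, and without replicate 2 there were 4.

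The third comparison set the scrambled AMO against untreated cells. No zone was called in level (edgeR quasi-likelihood test, 0% of all clusters called in either direction), in mean position (limma, 0% in either direction) or in site use (diffSpliceDGE of edgeR, 0%). At an unadjusted p under 0.05, 85 zones (7.49%) had a higher and 128 (11.3%) a lower level, against 8.53% and 4.54% of all clusters tested. In mean position 31 zones (2.76%) were further downstream and 63 (5.6%) further upstream at that p, against 2.32% and 5.15%, and in site use there were 34 zones (7.44%) against 5.78%. DESeq2 called 23 zones (2.03%) higher and 39 (3.44%) lower in level, against 2.29% and 1.4% of the clusters to which it gave an adjusted p. Shares of the band are not given for these 2 counts of level. In level, the libraries did not overlap in 23.7% of zones higher and 26.8% lower. The shares were 22.4% and 26.6% of the clusters at 10 to 200 CPM, and 26.7% and 16.4% of all clusters tested. The libraries did not overlap in mean position in 165 zones downstream and 245 upstream, or 14.7% and 21.8%, against 13.7% and 21.3% of all clusters. For the most upstream site 104 zones were higher and 62 lower, or 22.8% and 13.6%, against 23.4% and 12.8%. A difference of 5 nt or more was found in 48 zones. The mean position of the zone at chr2:118931128-118931255 differed by 15.0 nt here (SE 3.29, limma adjusted p = 0.533), close to its difference for the U1 AMO. At chr19:8954488-8954624 on the minus strand, an AAAAGA site held 52.3% and 59.1% in untreated cells and 38.5% and 38.7% under the scrambled AMO, and an AATGAA site 59 nt downstream held 46.0% and 40.9%, and 60.8% and 60.5%. With the U1 AMO the AAAAGA site held 38.1% and 35.7%, so the AMO libraries lay together and apart from untreated cells, whose runs they do not share.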

How the data were processed

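The 3′ ends of poly(A)-selected RNA were sequenced in 6 libraries. Per the labels' protocols, poly(A)+ RNA was cut with RNase T1, and the cDNA was circularised and amplified by PCR. No molecular identifiers are described. Per the submitters' processing notes, cutadapt and Bowtie were used with build mm9. Tool versions and the position filter were not given in the sources used here. The authors deposited, for each library, stranded positions, each with a raw read count, a hexamer and its distance. A deposited score from 0 to 10, whose meaning is not given, was not used.

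Positions (2333467 outside chromosome M) were joined into clusters as described, and CPM was computed from the counts and the total of each library. Levels were tested with edgeR 4.0.16 (TMM, filterByExpr, quasi-likelihood), mean positions with limma 3.58.1 (trend, robust) in clusters of at least 10 CPM, and site use with diffSpliceDGE, in R 4.3.3, over all clusters, with the 3 groups in a single fit and Benjamini-Hochberg adjustment. With 2 libraries a group, the spread is shared over groups. The tests were checked on simulated counts. Other values used Python 3.11.15, numpy 2.4.6, pandas 2.3.3, scipy 1.17.1 and matplotlib 3.10.9, and DESeq2 1.42.0 was an alternative. Others changed scaling, filters, measure and libraries.

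The run pairs the AMO libraries by number: deviations correlated at r = 0.82 over 22691 clusters, which are not independent. Members and lists were chosen with earlier results of these data known. Named zones were the extremes of width, level, number of used sites, second peak, shift, change in level and site use, without chromosome 18. The profiled zones and those of run-paired use, and some examples among the extremes, were chosen after their values were seen.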

Additional observations from a re-analysis of the deposited data

How the results depend on the processing

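The number of wide zones depends on its rule. It was 395 with a joining distance of 12 nt, 2026 with 36 nt, 698 and 336 with positions of at least 2 and at least 5 pooled reads, 131 by the span of the middle 90% of reads, and 972 to 1082 without a single library. Between the 2 AMO groups, the 10 calls in level became 151 in the 4 AMO libraries with the replicate block, where number and run are the same term, 0 with a replicate block over all 6 libraries, and 0 to 11 without a single library. The mean position gave 2 calls with the replicate block in the 4 libraries, 2 by the median position and 0 whichever library was left out. Site use gave 1 to 2 without a single library and 0 by limma on log odds, an alternative chosen after seeing the data, which left out both called zones for too few reads. For U1 AMO against untreated, the 49 calls in level became 16 in the 4 libraries alone, 18 there with the replicate block, 0 with the block over 6 libraries, 156 by DESeq2 and 10 to 115 without a single library. Mean position gave 19 calls by the median and 0 to 6 without a single library, 1 without untreated replicate 1 and 6 without untreated replicate 2. Site use gave 1 with the replicate block, 0 by limma on log odds and 2 to 15 without a library. For scrambled AMO against untreated, level gave 62 calls by DESeq2, 18 with no filter on low counts and 0 whichever library was left out, mean position 17 by the median and 0 to 5 without a library (5 without untreated replicate 2), and site use 0 to 2 (2 without untreated replicate 2). Medians are whole numbers with little spread between replicates, so calls on them are of doubtful meaning. The untreated numbers ran against those of the AMO libraries (r = -0.35 for U1 and -0.42 for scrambled), and crossing them, chosen after seeing the data, gave 96 calls in level for U1 AMO and 46 for scrambled AMO against untreated. The median share at the strongest position differed between groups by -3.31 to 0.703, -8.56 to -1.32 and -7.26 to -0.0245 percentage points over the libraries left out, in the same order of comparisons. No named zone changed direction. Causes of these changes were not tested. Without molecular identifiers, reads are not independent molecules, and low control counts limit the site shares of the 2 called zones.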
